A study of Mus musculus with 6 samples.

Results

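The nuclei described here are GABAergic amacrine nuclei of the mouse retina, starburst cells left out. A nucleus belonged to them if it held at least 2 UMIs of Gad1 and Gad2 together and at least 1 UMI of Tfap2a, Tfap2b, Tfap2c or Pax6. It could hold no UMI of Slc6a9, Lhx1, Chat, Slc5a7 or Slc18a3, and at most 1 UMI over Slc1a3, Rbpms, Slc17a6, Trpm1, Grm6, Arr3 and Pde6c, which mark other classes. A UMI is a molecular identifier that counts captured RNA molecules. The members were thus chosen by their measured UMI counts of these genes, and those counts are no finding here. This gate took 986 of 55230 nuclei. The study sequenced nuclear RNA of retinas (10x Genomics 3′ chemistry) from wild-type C57BL6/J mice at 18 months and at 3 months of age, with 3 libraries per age and no other treatment or allele. Values of single libraries are given throughout in the order of replicates 1, 2 and 3 of each age. The gate took 230, 292 and 118 nuclei at 18 months and 147, 68 and 131 nuclei at 3 months. The labels do not say whether each library came from a separate animal, so p-values measure only how far these libraries scatter, which may be technical.

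Amacrine cells are interneurons of the inner retina that shape the signals passing from bipolar cells to ganglion cells. Most release either GABA or glycine. GABAergic amacrine cells are mostly wide-field cells, make GABA with the glutamate decarboxylases that Gad1 and Gad2 encode, and often release a neuropeptide, nitric oxide or a monoamine as well. Starburst cells, which release acetylcholine and GABA, are left out by their acetylcholine genes, and glycinergic cells by the glycine transporter Slc6a9.

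The gated nuclei were deeper than the rest of their libraries. Their median UMI count was 3328, 2937 and 1669.5 at 18 months and 2490, 3056.5 and 3339 at 3 months. The medians over all nuclei kept were 2421, 1035 and 1176.5 at 18 months and 1874, 1361 and 1695 at 3 months. UMIs summed over the gated nuclei came to 892203, 977791 and 253595 at 18 months and to 391715, 228745 and 471244 at 3 months. No gated barcode was shared between any pair of libraries, and 0.170% to 0.506% of all barcodes were. Most members lay close to the limit of the rule, with 623 nuclei at exactly 2 Gad UMIs, 224 at 3, 87 at 4, 35 at 5 and 17 above. A further 2002 nuclei met every other condition with 1 Gad UMI. Of the members, 282 held 1 UMI of another class and 704 held none, and 91 nuclei just outside held 2.

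The label was checked on genes that the rule did not use. Slc32a1 (mm10 chr2:158610767-158615748, plus strand) encodes the vesicular transporter for GABA and glycine, and Meis2 (chr2:115863064-116065839, minus strand) a transcription factor of GABAergic amacrine cells. Slc32a1 in the gated nuclei stood at 3.12, 2.10 and 1.07 times its level in the library's other nuclei at 18 months and at 3.13, 4.54 and 4.28 times at 3 months. Meis2 stood at 2.55, 2.34 and 1.43 times at 18 months and at 2.54, 3.83 and 4.13 times at 3 months. In 5 libraries both genes were thus 2.10 to 4.54 times as high in the gated nuclei, while in 18-month replicate 3 the gated nuclei lay close to the library's other nuclei. That library stands apart in other ways too, with 102 of its 118 members at exactly 2 Gad UMIs. The main results on age are therefore also given without it. Slc6a5 and Tcf4, on the list of glycinergic markers and also outside the rule, went different ways. Slc6a5 was higher in the gated nuclei too, at 3.52, 2.74 and 1.71 times the other nuclei at 18 months and 3.12, 2.38 and 5.87 times at 3 months. Tcf4 stood at 0.461, 0.683 and 1.04 times at 18 months and at 0.656, 0.716 and 0.634 times at 3 months. The reason was not tested.

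**Figure D1:**
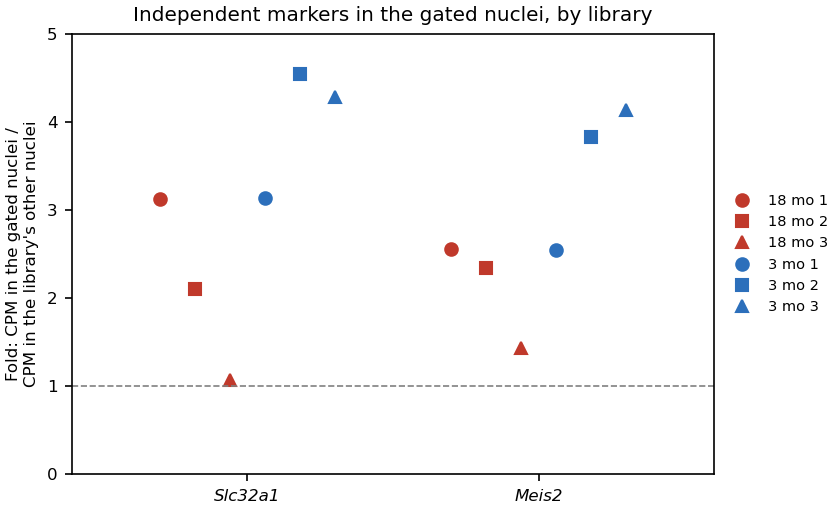
Fold of CPM in the gated nuclei over CPM in the other nuclei of the same library (vertical axis, linear) for Slc32a1 and Meis2, with 1 point per library and a dashed line at a fold of 1. Of the 6 libraries, 18-month replicate 3 lies nearest to the line for each gene, at 1.07 and 1.43.

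Across the limit of the rule the levels were given with no test, first pooled over libraries, which weigh differently in each set. Nuclei with 3 or more Gad UMIs had 167 CPM (UMI counts scaled to the same total in every set) of Slc32a1 and 1342 CPM of Meis2. Nuclei with 2 Gad UMIs had 154 and 1220 CPM, and nuclei with 1, outside the gate, had 121 and 1066 CPM. This order did not hold in every library: it held for Slc32a1 in 2 of 6 and for Meis2 in 4 of 6. Free RNA can put Gad UMIs into cells that do not make them. Of nuclei with at least 3 UMIs of rod genes, 10.3%, 4.85% and 3.64% held 2 or more Gad UMIs at 18 months, and 9.67%, 2.12% and 5.94% did at 3 months. Their median UMI counts were 2591, 1103 and 1293 at 18 months and 2340.0, 1296 and 1650.5 at 3 months. Of those with 2 or more Gad UMIs, 66 of 262, 123 of 460 and 62 of 267 were members at 18 months, and 64 of 257, 38 of 100 and 66 of 225 at 3 months. In a narrower set, chosen after the data were seen, of nuclei with at least 1% of UMIs in rod genes, 1 of 48, 4 of 590 and 0 of 14 held 2 or more Gad UMIs at 18 months, and 0 of 75, 3 of 1412 and 1 of 554 did at 3 months. That set was shallower than the members, with median UMI counts of 812, 723.5 and 958 at 18 months and 850.0, 1085 and 1038.5 at 3 months.

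RNA of other classes was present in the gated nuclei at both ages. The 8 rod markers, all of them detected, summed to 3843 to 6250.1 CPM at 18 months and to 6198 to 7488 CPM at 3 months. The 7 Müller glia markers summed to 316 to 907 CPM at 18 months and 225 to 378 CPM at 3 months, and the 7 cone bipolar markers to 294 to 662 CPM and 275 to 378 CPM at the same ages. The 6 glycinergic markers, with Slc6a9 at 0 by the rule, summed to 306 to 781 CPM at 18 months and 255 to 421 CPM at 3 months. Of the 6 starburst markers, Chat, Slc5a7 and Slc18a3 were at 0 by the rule and Fezf1 was at 0 as well. The part of other classes in the results that follow was not tested.

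Glycinergic amacrine nuclei (1160) were set beside the GABAergic nuclei. They needed at least 1 UMI of Slc6a9, a looser limit than 2 Gad UMIs, and no Gad UMI, with the other conditions alike. This comparison is a description without a test, since the gates are a choice by transmitter. The glycinergic nuclei were shallower than the GABAergic nuclei in every library. Their median UMI counts were 2547, 2009 and 1311 at 18 months and 1860, 1880 and 2379 at 3 months. Their rod markers were higher in every library, at 7121 to 8938 CPM at 18 months and 10162 to 15845 CPM at 3 months. The part of depth and of rod RNA in the differences was not tested. Of 8145 genes at 20 CPM or more, 8.36% were higher in the GABAergic nuclei in all 6 libraries and 12% were lower in all 6. The genes on the higher side included receptors for glutamate and GABA. Metabotropic glutamate receptors were among them, with 5 of 5 genes at 20 CPM or more higher in all 6 libraries. Grm5, a receptor that couples to phospholipase C, averaged 351 ± 104 CPM in GABAergic nuclei and 152 ± 79.6 CPM in glycinergic nuclei (SD, n = 6). Grm7, an inhibitory presynaptic receptor, averaged 1058 ± 282 CPM in GABAergic nuclei and 532 ± 151 CPM in glycinergic nuclei, and both were higher in 6 of 6 libraries. Of 16 ionotropic glutamate receptor genes, 6 were higher and 0 lower in all 6 libraries, and the NMDA receptor subunit gene Grin2a averaged 315 ± 47.8 CPM in GABAergic nuclei and 137 ± 52.4 CPM in glycinergic nuclei.

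The GABA receptor genes divided. Of those at 20 CPM or more, Gabra2, Gabra3, Gabrb1 and Gabbr1 were higher in the GABAergic nuclei in all 6 libraries and Gabrg3 was lower in all 6. Gabra2, the alpha 2 subunit, averaged 304 ± 51.1 CPM in GABAergic nuclei and 142 ± 68.8 CPM in glycinergic nuclei. Gabrg3, the gamma 3 subunit, averaged 305 ± 149 CPM in GABAergic nuclei and 1049 ± 226 CPM in glycinergic nuclei. Among genes of GABA synthesis, release and uptake outside the rule, Slc38a1 and Slc38a2 were higher in all 6 libraries. The glutamine carrier Slc38a1 averaged 155 ± 28.4 CPM in GABAergic nuclei and 105 ± 25.0 CPM in glycinergic nuclei. Slc32a1, which both transmitters need, was higher in 5 of 6 libraries. The taurine transporter Slc6a6 was lower in all 6, at 366 ± 106 CPM in GABAergic nuclei and 576 ± 169 CPM in glycinergic nuclei.

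Transcription factors also divided the 2 kinds of amacrine nuclei. Of 18 measured, Meis2, Maf, Zfhx3, Zfhx4, Bhlhe22 and Nr4a2 were higher in GABAergic nuclei in all 6 libraries, and Ebf1, Ebf3, Neurod1, Nfia, Nfib, Nfix, Satb1 and Tcf4 were lower in all 6. Meis2 averaged 1242 ± 249 CPM in GABAergic nuclei and 410 ± 130 CPM in glycinergic nuclei. Tcf4 averaged 264 ± 134 CPM in GABAergic nuclei and 734 ± 125 CPM in glycinergic nuclei. Adhesion and wiring genes, the list with the most genes measured, also had the most members on the higher side, 31 of 58, with 4 lower in all 6. Among them Cntn5, a contactin, averaged 923 ± 204 CPM in GABAergic nuclei and 419 ± 169.6 CPM in glycinergic nuclei. Of dopamine receptors, Drd1 was higher in GABAergic nuclei in all 6 libraries and Drd2 and Drd4 were lower in all 6. Chrm3, a muscarinic acetylcholine receptor, averaged 344 ± 62.6 CPM in GABAergic nuclei and 124 ± 23.9 CPM in glycinergic nuclei. No cytosolic ribosomal protein gene was higher in all 6 libraries, and 24 of 51 were lower in all 6. Without 18-month replicate 3, 977 of the 8145 genes were higher in all 5 libraries left, against 681 in all 6.

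**Figure D2:**
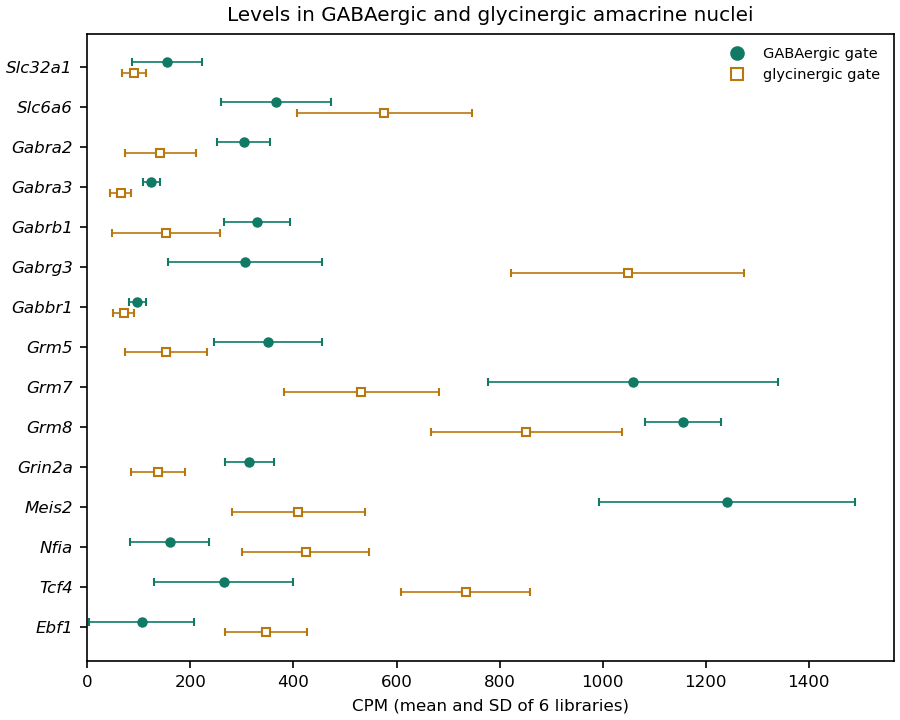
Level in the GABAergic gate (filled circles) and the glycinergic gate (open squares) for 15 genes, in CPM on a linear axis, as the mean and SD of 6 libraries. Gabra2, Grm5 and Meis2 lie to the right in GABAergic nuclei, and Gabrg3, Nfia, Tcf4 and Ebf1 lie to the right in glycinergic nuclei.

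The members were far from uniform. Clustering them alone gave 22 clusters of 11 to 138 nuclei, which keep their numbers here. Their leading genes are those the clusters were made from and are given as a description. Several peptide genes lay mainly in 1 cluster. Vip, which encodes vasoactive intestinal peptide (chr10:5639218-5647617, plus strand), stood at 578 CPM in the 40 nuclei of cluster 10 and at 4.19 CPM in all other members, and 66 of its 79 UMIs came from that cluster. Cbln4, Nfia and Nr4a2 led there too. Sst, the gene of somatostatin, stood at 267 CPM in the 31 nuclei of cluster 13 and at 2.58 CPM in the others. That cluster also led in Cartpt, Ntng1 and the serotonin receptor Htr2c. Its 3 Th UMIs were of 7 in all members. Th encodes the enzyme that limits dopamine synthesis.

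Other clusters carried other transmitters. Tac2, the neurokinin B gene, stood at 690 CPM in the 85 nuclei of cluster 2, beside Tlr4, Adra1b and Eomes, and at 39.1 CPM in the other members. Tac1, the gene of substance P, stood at 430 CPM in the 47 nuclei of cluster 5, led by Col11a1, Nox4 and the oestrogen receptor Esr1, and at 39.3 CPM elsewhere. Npy, the gene of neuropeptide Y, stood at 730 CPM in the 16 nuclei of cluster 19 and at 18.0 CPM elsewhere. Nos1 (chr5:117781032-117958840, plus strand), the neuronal nitric oxide synthase, stood at 640 CPM in the 29 nuclei of cluster 15 and at 24.8 CPM elsewhere. Cartpt, which encodes the CART peptide, stood at 1513 CPM in the 26 nuclei of cluster 16, led by Kit and Sv2c, and at 145 CPM elsewhere. Most UMIs of some of these genes lay outside the cluster named. It held 108 of 564 UMIs of Cartpt, 38 of 95 of Npy, 80 of 199 of Tac1, 74 of 151 of Nos1 and 241 of 353 of Tac2. Crh, corticotropin-releasing hormone, had 7 of its 8 UMIs in cluster 12. Penk had 2 UMIs, Gal 4 and Adcyap1 5 in all 986 nuclei, and Trh, Nts and Npw had none.

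**Figure D3:**
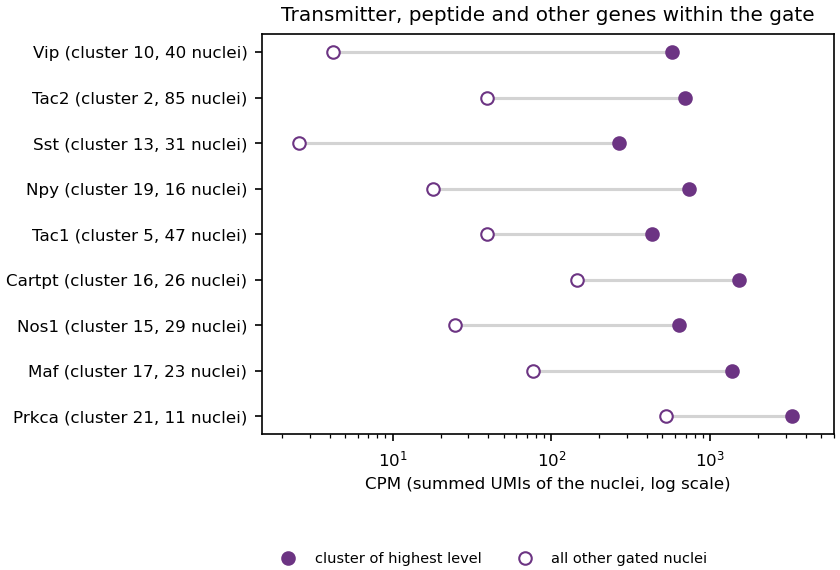
Level of 9 genes in the cluster where each is highest (filled) and in all other gated nuclei (open), in CPM on a log axis. Vip and Sst show the widest gaps, 578 against 4.19 CPM and 267 against 2.58 CPM, while Prkca is at 530 CPM even outside its highest cluster.

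Further clusters were led by genes other than transmitters. Maf, a transcription factor, stood at 1370 CPM in the 23 nuclei of cluster 17 and at 76.6 CPM in the other members. Cluster 3 was led by Tenm3 and Slit2, cluster 6 by Olfm3 and the thyrotropin receptor gene Tshr, cluster 11 by Col8a1 and Prox1, and cluster 18 by the cadherin gene Cdh9 and by Cntnap5b. Prkca, the protein kinase that also marks rod bipolar cells, stood at 3256 CPM in the 11 nuclei of cluster 21. The clusters were not spread evenly over libraries. Of the 22 clusters, 9 held nuclei of all 6 libraries, and 11 held nuclei of every library but 18-month replicate 3.

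Clusters 0 and 1 came mainly from single libraries. Cluster 0 held 138 nuclei, 87 of them from 18-month replicate 3, and was led by Sox2ot, Ebf1, Kcnmb2 and Col25a1. Its summed cone bipolar markers stood at 750 CPM against 308 CPM in the other members, and its glycinergic markers at 774 against 327 CPM. Cluster 1 held 96 nuclei, 75 of them from 18-month replicate 2, and was led by Apoe and Kdr. Its rod markers summed to 11733 CPM against 4726 CPM, and its Müller glia markers to 1862 against 416 CPM. Clusters 2 to 21 held 222, 192 and 21 members of the 18-month libraries, and 136, 63 and 118 members of the 3-month libraries. Only 21 of the 118 members from 18-month replicate 3 thus lay outside clusters 0 and 1.

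**Figure D4:**
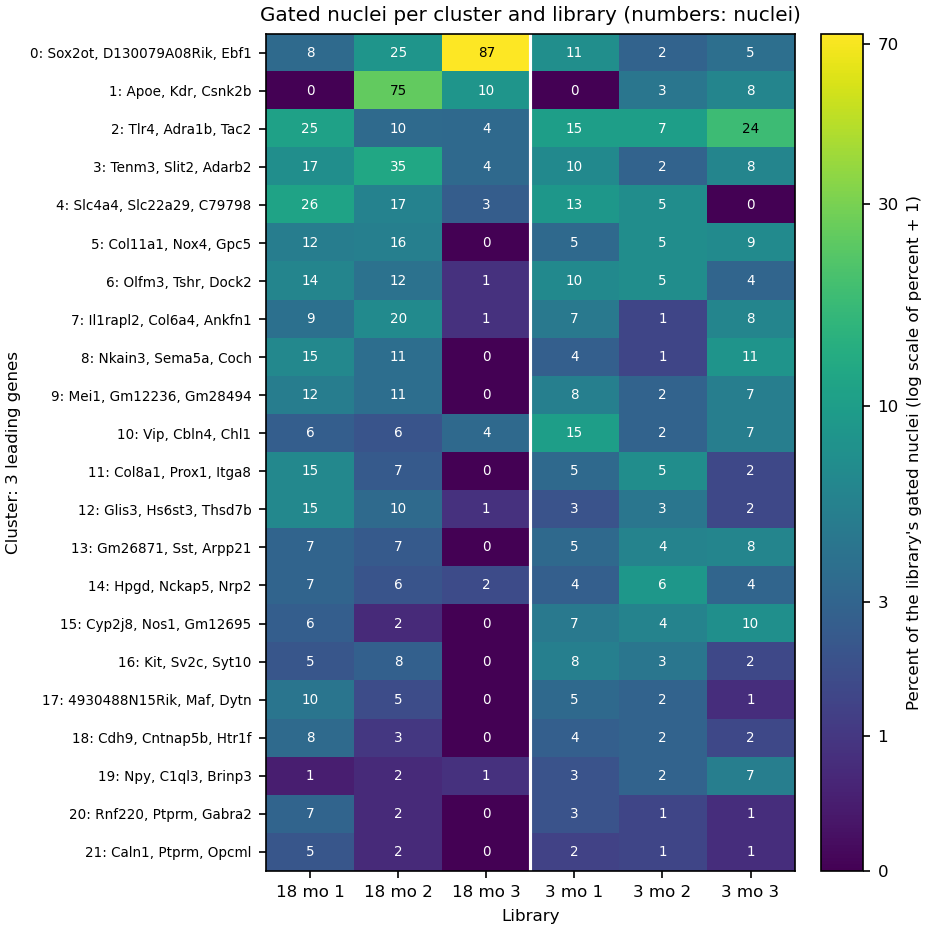
Number of gated nuclei (digits) and percent of each library's gated nuclei (colour, log scale of percent + 1) per cluster and library, with 18-month libraries left of 3-month libraries and the 3 leading genes beside each cluster number. Cluster 0 takes 87 nuclei of 18-month replicate 3 and cluster 1 takes 75 of 18-month replicate 2.

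Shares of members with a marker were compared after each nucleus had been thinned to 2000 UMIs, which left 731 of 986 nuclei and only 48 of 118 in 18-month replicate 3. Meis2 was found in 79.2% of the thinned members, Prkca in 52.0%, Calb2 in 16.8%, Cartpt in 14.1% and Maf in 10.8%. Tac1 was found in 9.03%, Nos1 in 6.29%, Npy in 3.83%, Vip in 2.74% and Sst in 1.09%. Gbx2 and Neurod6, which mark small amacrine types, were found in 0 of 731. In glycinergic nuclei thinned in the same way, Meis2 was found in 43.4%, Prkca in 54.4%, Cartpt in 14.7% and Tac1 in 4.08%, so the shares of Prkca and Cartpt in the gate are no higher than in a type outside it. Maf was found in 2.78% of glycinergic nuclei, Nos1 in 1.11%, Npy in 2.41% and Vip in 0.557%.

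With at least 1 UMI in thinned members, Nos1 and Crh were the 2 of 28 markers whose shares did not overlap between the ages. For gene levels rather than shares, 8.13% of 7561 genes had no overlap. Nos1 was found in 5.39%, 1.84% and 4.17% of thinned members at 18 months and in 9.52%, 14.3% and 10.9% at 3 months. Every 18-month share was below every 3-month share, by -7.77 percentage points in the means. Without thinning the shares were 8.70%, 3.08% and 2.54% at 18 months and 11.6%, 11.8% and 13.7% at 3 months, again with no overlap. The two-sided exact permutation test gave p = 0.1, the smallest that 3 against 3 libraries allow, and 0.862 after Benjamini-Hochberg adjustment over 28 markers. Crh rests on 3 thinned nuclei, all of them at 18 months. Without thinning its shares overlapped, at 0.435%, 0.685% and 0.847% at 18 months and 0%, 0% and 0.763% at 3 months. With at least 2 UMIs required in thinned members, the shares of Prkca did not overlap either. They were 33.3%, 25.3% and 45.8% at 18 months and 21.0%, 16.1% and 20.8% at 3 months (exact permutation p = 0.1). None of the 28 markers passed after adjustment. Vip was found in 1.96%, 1.84% and 4.17% at 18 months and in 2.86%, 1.79% and 5.94% at 3 months, so the ages overlapped.

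Genes that went with a marker inside the gate could be tested for Meis2, Prkca and Cartpt, the only markers with at least 5 positive nuclei (2 or more UMIs) in at least 4 libraries. Each fit (edgeR's quasi-likelihood test, a term per library) set the summed counts of positive nuclei against those of nuclei with 0 UMIs. Meis2-positive nuclei (662) had 143 genes higher, 4.41% of 3241 tested, and 148 lower, 4.57%. Cdh8, a classical cadherin, averaged 220 ± 96.8 normalised CPM in positive nuclei and 42.1 ± 48.2 in negative nuclei (SD, n = 6), a log2 ratio of 2.25 ± 0.32 (SE; Benjamini-Hochberg adjusted p = 2.7e-05), higher in 6 of 6 libraries. Adarb2 averaged 1247 ± 300 in positive nuclei and 343 ± 202 in negative nuclei, and the glycine receptor subunit gene Glra2 averaged 136 ± 25.3 and 33.3 ± 25.9 in the same order. Fgd6, March3, Mpp6, Olfm3 and the ephrin receptor gene Epha3 were higher as well, with log2 ratios of 1.91 to 2.09. Of 52 adhesion and wiring genes tested, 24 were higher and 3 (Dcc, Dscaml1 and Nrg1) lower in Meis2-positive nuclei, with a median log2 ratio of 0.46 against 0.00 over all genes tested. Cartpt, Scg2 and Nfia were lower, and 0 of 49 cytosolic ribosomal protein genes were higher and 23 lower.

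Meis2-negative nuclei also differed in depth and in RNA of other classes. Positive nuclei had median UMI counts of 2564 to 4079 per library, and negative nuclei 1166 to 2428. Summed rod markers ran from 3779 to 7022 CPM in positive nuclei and from 4536 to 13590.4 CPM in negative nuclei. They were lower in the positive nuclei in all 6 libraries, as were the Müller glia, cone and ganglion markers. The Müller glia, cone and ganglion lists hold genes that the rule limits (Slc1a3, Arr3, Pde6c, Rbpms and Slc17a6). A fixed limit in UMIs allows fewer CPM in deeper nuclei, so the order of these lists is partly set by the rule. The rod list holds no gene of the rule. The part of depth and of other classes in the differences was not tested. Of the Meis2-negative nuclei, 80 came from 18-month replicate 2 and 45 from 18-month replicate 3. Without 18-month replicate 2 the count of genes called was 132, against 291 in all libraries, and 2144 genes were tested.

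Prkca-positive members (374) had 51 genes higher, 1.35% of 3781 tested, and 56 lower, 1.48%. Olfm3, which encodes a secreted olfactomedin, averaged 713 ± 581 normalised CPM in positive nuclei and 138 ± 87.0 in negative nuclei, a log2 ratio of 2.10 ± 0.27 (edgeR adjusted p = 2.05e-05), higher in 6 of 6 libraries. P3h2, a collagen prolyl hydroxylase, averaged 252 ± 72.3 and 67.9 ± 33.7, and the adhesion gene Sdk1 averaged 1530 ± 569 and 713 ± 261, positive nuclei first. Adgrv1, which encodes an adhesion receptor of the G protein-coupled family, was higher too, with a log2 ratio of 0.99 ± 0.18, as were Pdzph1, Zfp804a and Clmp. Maf, Zfhx3 and Zfhx4 were lower in Prkca-positive nuclei. Rod bipolar markers other than Prkca had a median sum of 85.0 CPM in positive nuclei and 111 CPM in negative nuclei. They were higher in the positive nuclei in 2 of 6 libraries. Among these markers, Trpm1 and Grm6 are limited by the rule, so the sums are partly set by the choice of nuclei. The part of rod bipolar RNA was not tested. Without 18-month replicate 1 the count was 53, against 107 in all libraries.

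Cartpt-positive members (73, in 5 libraries with at least 5) had 12 genes higher, 0.418% of 2870 tested, and 8 lower, 0.279%. Nfia, a transcription factor, averaged 676 ± 332 normalised CPM in positive nuclei and 139 ± 130 in negative nuclei (SD, n = 5), a log2 ratio of 2.31 ± 0.40 (edgeR adjusted p = 0.00173), higher in 5 of 5 libraries. Chrm3 averaged 1133 ± 572 in positive nuclei and 431 ± 85.9 in negative nuclei, and Grm5 averaged 1145 ± 839 and 432 ± 160 in the same order. These calls did not hold under every alternative. With positivity set at 1 UMI the log2 ratio of Chrm3 was 0.46 (adjusted p = 0.521) and that of Grm5 0.53 (adjusted p = 0.301). With no low-count filter the adjusted p was 0.106 for Chrm3 and 0.124 for Grm5, without 18-month replicate 2 it was 0.0914 for Grm5, and without 3-month replicate 3 it was 0.0505 for Nfia. With Cartpt positivity set at 1 UMI, 5 genes in all passed in place of 20. The count fell to 11 without 3-month replicate 3 and to 13 without 18-month replicate 2. Summed Müller glia markers had a median of 517 CPM in Cartpt-positive nuclei and 288 CPM in negative nuclei. For cone bipolar markers it was 431 and 286 CPM, and both lists were higher in positive nuclei in 4 of 5 libraries. Rod markers were higher there in 2 of 5 and GABAergic amacrine markers, some of them in the rule, in 0 of 5. The part of other classes was not tested.

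The first question on age was whether the share of these nuclei differed. They made up 3.90%, 1.81% and 0.816% of nuclei at 18 months and 2.80%, 1.04% and 1.89% at 3 months. The means were 2.18% ± 1.58 at 18 months and 1.91% ± 0.881 at 3 months (SD, n = 3), with the ages overlapping and a two-sided exact permutation p of 0.9. Without 18-month replicate 1 the difference turned to -0.601 points, and without 3-month replicate 2 to -0.172 points. As a share of the GABAergic, glycinergic and starburst gates together it was 38.6% ± 7.06 at 18 months and 47.3% ± 14.2 at 3 months, and the same exact permutation test gave p = 0.5. Without 18-month replicate 3 the difference in the share of all nuclei was 0.943 points. With every nucleus thinned to 2000 UMIs before gating, the share was 2.41% ± 0.947 at 18 months and 1.83% ± 0.735 at 3 months, a difference of 0.578 points, and the exact permutation test gave p = 0.4.

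The second question was which genes differed with age within these nuclei. With age as the only term, edgeR's quasi-likelihood test called 0 of 7561 genes at an adjusted p at or below 0.05, which is 0%. At an unadjusted p under 0.05 there were 222 genes (2.94%), and 615 genes (8.13%) had no overlap between the ages. A p that misses the threshold does not show that levels did not differ. With the release of the counting software (Cell Ranger 7.1.0 for replicate 1 of both ages, 7.2.0 for the others) as a second term, 1 gene passed (0.0132%). With the replicate number as a block, 8 passed (0.106%), 6 of them lower at 18 months (0.0794%). DESeq2 called 1 gene, Nxph1 (0.0132%), with 136 at an unadjusted p under 0.05. Leaving out 18-month replicate 3, the fit with age alone called 0 and the fit with the release term called 14 of 8551 (0.164%), of which 11 were lower (0.129%).

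The genes that passed with a second term were mainly those of the mitochondrial genome, which encodes parts of the respiratory chain. With the release term it was mt-Nd3 (chrM:9459-9806, plus strand), a subunit gene of complex I. It stood at 615, 112 and 115 normalised CPM at 18 months and at 1358, 302 and 391 at 3 months. Within each release the 18-month libraries were lower, although the ages overlapped between releases. The log2 change was -1.26 ± 0.68 (SE) with age alone (adjusted p = 0.999), -1.43 with the release term (adjusted p = 0.0246) and -1.40 with the replicate block (adjusted p = 0.0282). With age alone it was -0.92 without 18-month replicate 3. Replicate 1 had the highest level at each age, so with age alone the size moved when 1 of its libraries was left out. It was then -2.61 without the 18-month library of that number and -0.27 without the 3-month one. The other nuclei of the libraries had 577, 152 and 150 CPM of mt-Nd3 at 18 months and 1035, 320 and 279 CPM at 3 months. With the block, mt-Atp6, mt-Co2, mt-Co3, mt-Cytb and mt-Nd4l also fell, and Nxph1 and the gene model Gm32647 rose. Gm32647, among the leading genes of cluster 0, stood at 17.4, 30.9 and 226 normalised CPM at 18 months and at 2.69, 14.8 and 27.9 at 3 months, and its log2 change of 2.27 with age alone was 0.63 without 18-month replicate 3.

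All 13 mitochondrially encoded genes were fitted lower at 18 months, with a median log2 change of -0.97 against -0.01 over all genes tested, and in 8 of 13 the ages did not overlap, against 3.57% of all genes that were lower without overlap. None passed with age alone. mt-Cytb, the cytochrome b gene, stood at 837, 899 and 1281 normalised CPM at 18 months and at 1636, 2210 and 2533 at 3 months, all 18-month libraries lying below all 3-month ones. These genes are not independent of the choice of nuclei, which set a limit of 5% on their share of UMIs. The median share in members was 1.05%, 0.516% and 0.852% at 18 months and 2.28%, 1.34% and 1.48% at 3 months. Over all nuclei kept it was 1.34%, 1.19% and 1.10% at 18 months and 2.501%, 2.26% and 1.52% at 3 months, without overlap there too. With a limit of 2% the median log2 change was -0.65, and without 18-month replicate 3 it was -0.92. In nuclear RNA, mitochondrial transcripts come from outside the nucleus.

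Neuropeptide and granule genes had the next lowest median. Of 22 on the list, 9 were measured well enough to test, none passed, and all 9 were fitted lower at 18 months, with a median log2 change of -0.79, and -0.66 without 18-month replicate 3. The median over all genes tested was -0.01. In Vip, Scg2, Vgf and Chga the ages did not overlap, against 3.57% of all genes that were lower without overlap. Vip stood at 9.28, 19.8 and 8.51 normalised CPM at 18 months and at 51.2, 29.7 and 60.5 at 3 months. These rest on 8, 18 and 2 UMIs at 18 months and 19, 6 and 26 UMIs at 3 months. Its log2 change was -1.83 ± 0.45 (unadjusted p = 0.00172, adjusted p = 0.999), and -1.73 without 18-month replicate 3. Cluster 10, where most Vip UMIs lay, held 2.61%, 2.05% and 3.39% of the members at 18 months and 10.2%, 2.94% and 5.34% at 3 months, and the part of these shares was not tested. Vgf, which encodes a secreted neuropeptide precursor, stood at 54.5, 36.4 and 29.8 normalised CPM at 18 months and at 62.0, 119 and 107 at 3 months, a log2 change of -1.17 ± 0.35 (adjusted p = 0.999).

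The granule proteins showed the same order with smaller gaps. Scg2, secretogranin II, stood at 255, 240 and 187 normalised CPM at 18 months and at 261, 405 and 491 at 3 months, so 18-month replicate 1 and 3-month replicate 1 nearly touched. Chga, chromogranin A, stood at 150, 126 and 93.6 at 18 months and at 164, 183 and 298 at 3 months. Tac2 stood at 51.1, 75.0 and 55.3 at 18 months and at 43.1, 183 and 408 at 3 months, and the ages overlapped. Cluster 2, where Tac2 was high, held 10.9%, 3.42% and 3.39% of the members at 18 months and 10.2%, 10.3% and 18.3% at 3 months. Tac2 passed with no low-count filter and in replicates 2 and 3 alone. It also passed with the release term when either library of replicate 1 was left out. The release term then fits the other library of that number exactly, so the age estimate again rests on replicates 2 and 3. Npy, Tac1, Cartpt and Chgb overlapped as well, and Tac1 and Cartpt turned to a positive change without 3-month replicate 3. Nos1 stood at 59.2, 11 and 17.0 normalised CPM at 18 months and at 75.5, 79.1 and 97.8 at 3 months, without overlap, a log2 change of -1.43 ± 0.52 (adjusted p = 0.999). It was -1.28 without 18-month replicate 3, and leaving out replicate 1 of that age gave -2.72 and replicate 2 gave -0.97. Cluster 15, where Nos1 was high, held 6, 2 and 0 members at 18 months and 7, 4 and 10 at 3 months, and the part of these numbers and of those of cluster 2 was not tested. In replicates 2 and 3 alone its edgeR adjusted p was 0.0176, and 23 genes passed there.

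**Figure D5:**
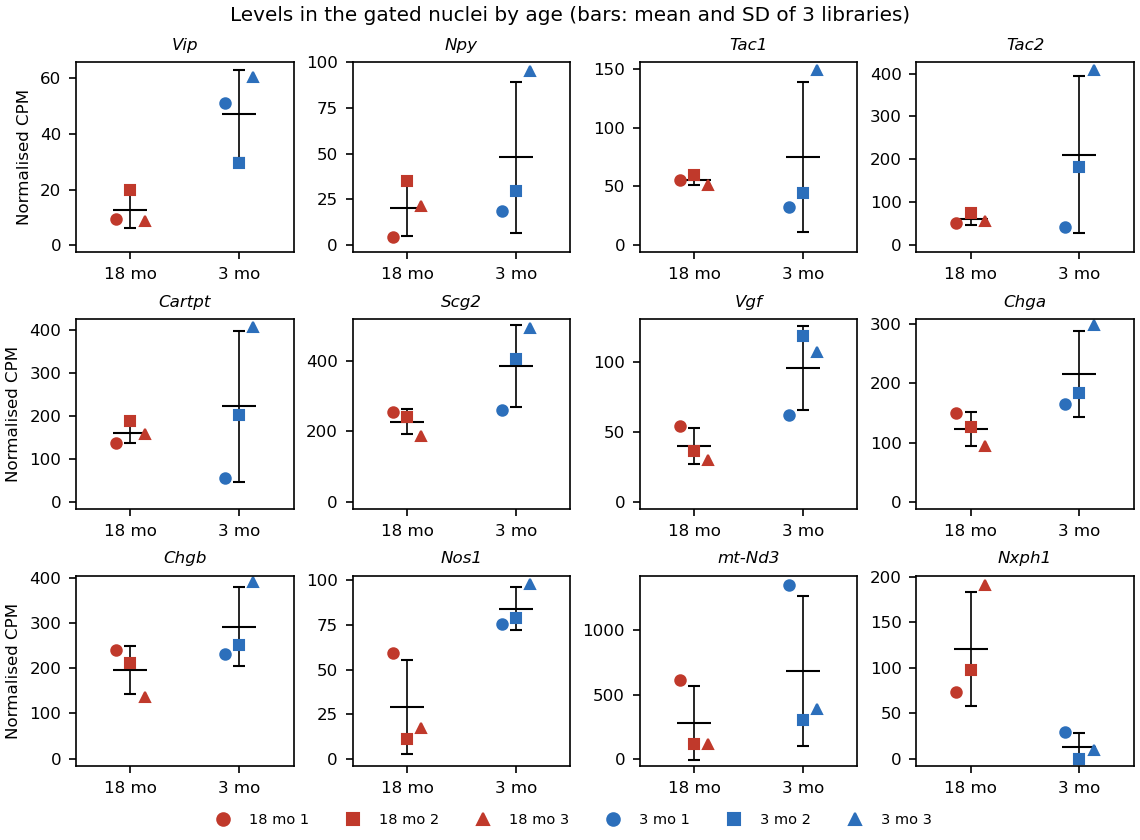
Normalised CPM of 12 genes in the gated nuclei, 18-month libraries (red) left of 3-month libraries (blue), with 1 symbol per replicate number and bars for the mean and SD of 3 libraries; each panel has its own linear axis. In Vip, Scg2, Vgf, Chga and Nos1 every 18-month library lies below every 3-month library, and in Nxph1 every 18-month library lies above.

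On the higher side, the genes named by rule included Nxph1, Otx2os1, Immp2l, Thada and Rlbp1, none of which passed with age alone. Nxph1 (chr6:8948431-9249032, plus strand), which encodes a secreted ligand of neurexins, stood at 73.1, 98.1 and 192 normalised CPM at 18 months and at 29.6, 0 and 9.31 at 3 months. Its log2 change was 2.95 ± 0.62 (adjusted p = 0.999), 2.98 with the replicate block (adjusted p = 0.0288) and 2.54 without 18-month replicate 3. Scaled together with the GABAergic nuclei, glycinergic nuclei had 160.2, 93.3 and 147 normalised CPM of Nxph1 at 18 months and 157, 0 and 87.9 at 3 months. Otx2os1, an RNA antisense to the bipolar and photoreceptor gene Otx2, stood at 231, 238 and 677 at 18 months and at 175, 98.9 and 88.5 at 3 months, and its log2 change of 1.60 was 0.94 without 18-month replicate 3. Rlbp1, a Müller glia gene, stood at 61.5, 118 and 183 at 18 months and at 48.5, 44.5 and 32.6 at 3 months. The summed Müller glia markers in these nuclei were at 316 to 907 CPM at 18 months and 225 to 378 CPM at 3 months, and their part was not tested. Immp2l stood at 399, 431 and 609 at 18 months and at 296, 237 and 238 at 3 months, and Thada at 143, 110.3 and 162 at 18 months and at 78.1, 64.3 and 65.2 at 3 months. On the lower side the rule gave mt-Nd4l, mt-Cytb, Vip, mt-Co2, Cdipt and mt-Co3. Cdipt, which encodes the enzyme that makes phosphatidylinositol, stood at 27.8, 24.3 and 29.8 at 18 months and at 56.6, 79.1 and 60.5 at 3 months, with every 18-month library below every 3-month one.

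None of the genes of GABA signalling passed. Of 8 genes of GABA synthesis, release and uptake tested outside the rule, 5 were fitted lower and 3 higher, with a median log2 change of -0.23, and -0.070 without 18-month replicate 3. Slc32a1 stood at 200, 124 and 46.8 normalised CPM at 18 months and at 197, 178 and 259 at 3 months, and its log2 change of -0.71 ± 0.39 (adjusted p = 0.999) was -0.40 without 18-month replicate 3. Of 13 GABA receptor genes, 5 were fitted lower and 8 higher, with a median log2 change of 0.02. Gabra2 stood at 254, 376 and 379 normalised CPM at 18 months and at 283, 396 and 284 at 3 months. Presynaptic release genes (26 tested) and adhesion and wiring genes (58 tested) each had a median of 0.02. Of 51 cytosolic ribosomal protein genes, 47 were fitted lower with a median of -0.30, and of 52 nuclear respiratory chain genes 44, with a median of -0.27. None of these passed with age alone.

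The difference of the age effect between GABAergic and glycinergic amacrine nuclei was tested with a term per library. It called 0 of 8717 genes (0%), with 357 at an unadjusted p under 0.05. The smallest adjusted p was 0.55, shared by Nxph1 and other genes. With at least 3 Gad UMIs required, Nxph1, Col25a1 and the gene model Gm26871 passed, all with a more positive age difference in GABAergic nuclei, though 18-month replicate 3 then held 16 nuclei. Col25a1 is among the leading genes of cluster 0. Without 18-month replicate 1 Nxph1 passed, and without 18-month replicate 3 Kcnd2 passed, a Kv4 potassium channel gene. Kcnd2 stood at 240.1, 394 and 579 normalised CPM in GABAergic nuclei at 18 months and at 232, 428 and 342 at 3 months. In glycinergic nuclei it stood at 22.5, 89.2 and 637 at 18 months and at 97.8, 317 and 287 at 3 months. Apart from Nxph1, these genes were named after their values were seen.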

How the data were processed

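The authors deposited unnormalised UMI counts for each gene in each barcode; all values are whole numbers. Per the file headers, Cell Ranger 7.1.0 made replicate 1 of both ages and 7.2.0 the others; per the submitters' processing notes, mm10 and Seurat were used. Nuclei with at least 300 genes and at most 5% mitochondrial UMIs were kept (55230 of 62893 barcodes). Doublets were not called; an alternative left out the deepest 5% of members per library. The members and gene lists were chosen with earlier results of these data known.

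Counts were summed per library over gated nuclei and tested with edgeR 4.0.16 (TMM, filterByExpr, Benjamini-Hochberg) in R 4.3.3, with DESeq2 1.42.0 as an alternative. The SE was taken from the quasi-likelihood F statistic. The test was tested on simulated data. Positive and negative nuclei of a marker were set against each other with a term per library. Clusters came from scanpy 1.11.5 (2000 variable genes, 30 components, 15 neighbours, Leiden resolution 1). Coordinates are GENCODE M21 on mm10. Normalised CPM carry TMM factors; CPM do not. Counting intervals would cover counting error only.

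Same-numbered libraries of the 2 ages deviated together (r = 0.507, 0.197 and 0.102 over 7542 genes), so the replicate number was also fitted as a block, although 18-month replicate 2 correlated more with 3-month replicate 3 (0.320) and 18-month replicate 3 more with 3-month replicate 2 (0.135) than with its own number.

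Genes were named by this rule: the 12 largest called changes per direction without overlap between the ages, at a mean of 20 CPM or more, gene models left out. Where neither age alone nor the release term gave one, the 6 per direction with the smallest unadjusted p under the same limits were named, as here. For a marker, the 8 largest called ratios that were higher in every library were named. Members of the GABA, neuropeptide and transcription factor lists could be given in any case. Other names were chosen after their values were seen. Alternatives covered normalisation, filters, the gate, covariates and each library left out; a further gate on transporter UMIs was added after the data were seen. A few genes are not reported here.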

Additional observations from a re-analysis of the deposited data

How the results depend on the processing

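The count of genes with an age effect was 0 with age alone, with RLE size factors, with 4 other gates or limits, without the deepest nuclei and without each library in turn. It was 1 with the release term, 8 with the replicate block, 25 with no low-count filter, 23 in replicates 2 and 3 alone and 1 with DESeq2, and, with the release term, 34, 7 and 14 on leaving out the first, second and last 18-month library and 29, 0 and 0 on leaving out the 3-month libraries in that order. With either library of replicate 1 left out, the release term fits the other exactly, so the counts of 34 and 29 rest on replicates 2 and 3. The replicate block was fitted for the age effect only. The difference from glycinergic nuclei gave 15 genes with no filter, 3 with at least 3 Gad UMIs and 0 to 1 with each library left out. The share of nuclei differed by 0.263 points, by -8.71 as a share of the 3 amacrine gates, and by -0.601 to 0.943 with each library left out. Cartpt-positive nuclei had 66 genes with no filter, 5 at 1 UMI and 11 to 28 with libraries left out; for Prkca this range was 53 to 115 and for Meis2 132 to 289. Of 430 recomputed log2 changes of 19 genes, 424 kept their sign. Tac1 ranged from -0.87 to 0.58 with each library left out, turned at 0.58 without 3-month replicate 3 and to 0.57 with the release term as well. Cartpt ranged from -0.94 to 0.39, turned to 0.063 at 3 Gad UMIs, 0.017 at a mitochondrial limit of 2%, 0.39 without 3-month replicate 3 and 0.40 with the release term as well. The cause was not tested. The fewest UMIs came from 18-month replicate 3 (253595) and 3-month replicate 2 (228745).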
